A study of Mus musculus with 24 samples.

Results

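The 5 genes that encode the subunits of the transcription factor NF-κB (Nfkb1, Nfkb2, Rel, Relb and Rela) were examined in 24 ATAC-seq libraries of mouse blood stem and progenitor cells. ATAC-seq uses Tn5 transposase to insert adapters where chromatin is open, so the count of a region is a measure of its accessibility. A region belonged to a subunit gene when it overlapped the gene's body, or when the nearest end of any protein-coding gene within 50 kb was an end of that gene. By this rule 9 of the 13910 deposited regions were taken: 4 at Nfkb1, 2 at Rela and 1 each at Nfkb2, Rel and Relb. Regions were assigned to the genes by position only.

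All profiled cells were WT donor cells that carried CD45.1, and they were recovered 13 to 15 weeks after bone marrow transplantation into young CD45.2 recipients. The recipients were either WT or of a line labelled IκB–, whose genetic change the labels do not describe. Any difference between these groups is therefore one between WT cells that had lived in different hosts. Between 500 and 1500 cells were sorted per sample from marrow of both femurs and tibias, as HSC (labelled LT-HSC) or as the multipotent progenitor subsets MPP2, MPP3 and MPP4, which gave 8 groups of 3 libraries. The gate for HSC is written in the labels as lacking CD150 and CD48. The age of the donors, any pooling of mice and the cells that the hosts still had are not described in the labels used here.

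NF-κB binds DNA as a dimer of subunits that share the Rel homology domain. Rela, Relb and Rel carry transactivation domains, whereas Nfkb1 and Nfkb2 encode the precursors p105 and p100, which are processed to p50 and p52. IκB proteins hold the dimers in the cytoplasm until IκB kinase marks them for degradation. The canonical arm works mainly through Rela, Rel and p50 and answers inflammatory signals, and the non-canonical arm works through Relb and p52 and depends on the kinase NIK. Genes of this family are themselves among the textbook targets of NF-κB.

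Where the regions lay differed between the genes. Positions are on mm10 as the file gives them, and the RefSeq gene ends are on GRCm38.p6, which is the same build. The Rel region (chr11:23770674-23771481, 808 bp) covered the RefSeq start of the gene. The Rela start region (chr19:5637376-5637508, 133 bp) overlapped the lower end of Rela, and a further region (chr19:5648782-5649019, 238 bp) lay 648 bp past its other end. The Nfkb2 region (chr19:46304428-46304720, 293 bp) lay inside the gene as the gene table gives it, 3434 bp from its lower end, with its centre 163 bp before one of the annotated starts. The Relb region (chr7:19628481-19629151, 671 bp) lay inside the gene, 287 bp from its upper end. At Nfkb1, the upper-end region (chr3:135690826-135691358, 533 bp) lay 611 bp inside the upper end of the gene. Another 2 Nfkb1 regions lay inside the gene body, called here lower intragenic (chr3:135602800-135603105, 306 bp) and upper intragenic (chr3:135636228-135636565, 338 bp). The distal Nfkb1 region (chr3:135731358-135731641, 284 bp) lay outside the gene, 39389 bp beyond its upper end. In all, 5 of the 9 regions were less than 1 kb from a gene end, as were 54.8% of all regions. Exons and untranslated parts are not in the gene table used.

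The promoter sequences show part of what the start regions contain. The RefSeq table of promoters (GRCm38.p6) held entries for 3 of the 5 genes. Each sequence here is the part of the 250 bases before the annotated start that lies inside the accessible region, on the strand of the gene. The Rel and Nfkb2 regions reach further upstream than that, and those parts were not searched. Capitals mark letters that match a κB motif, the binding site of NF-κB, searched as GGGANTTTC and GGGANTTCC on both strands.
Rel, chr11:23770970-23771219, minus strand: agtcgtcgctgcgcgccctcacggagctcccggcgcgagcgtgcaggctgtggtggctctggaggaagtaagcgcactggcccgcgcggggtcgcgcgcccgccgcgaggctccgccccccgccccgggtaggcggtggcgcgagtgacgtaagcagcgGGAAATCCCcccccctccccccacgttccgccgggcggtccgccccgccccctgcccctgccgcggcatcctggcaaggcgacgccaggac
Nfkb2, chr19:46304487-46304720, plus strand: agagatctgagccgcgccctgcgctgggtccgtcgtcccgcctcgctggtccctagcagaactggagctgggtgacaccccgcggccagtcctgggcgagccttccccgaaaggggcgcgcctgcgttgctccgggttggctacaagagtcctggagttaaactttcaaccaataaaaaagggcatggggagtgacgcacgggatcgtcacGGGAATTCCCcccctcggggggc
Rela, chr19:5637376-5637508, plus strand: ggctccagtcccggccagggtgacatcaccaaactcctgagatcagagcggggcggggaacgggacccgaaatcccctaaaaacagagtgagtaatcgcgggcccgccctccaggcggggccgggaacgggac

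The Rel stretch held 1 κB match, GGAAATCCC, whose first base lay 91 bases before the start. The Nfkb2 stretch held 2 overlapping matches on opposite strands, GGGAATTCC from base 39 and GGAATTCCC from base 38 before the start. The Rela stretch held 0, which says only that these letters are not in this window. Of the 32851 promoter windows of 300 bases in the RefSeq table, 2.75% held a match to either κB motif. The 3 stretches were rich in G and C, with 77.6% in Rel, 66.2% in Rela and 65% in Nfkb2. The SP/KLF motif GGGCGG was present in the Rel window at 5 places and in the Rela window at 2, and 35.7% of all windows held it. The ETS motif GGAAGT (23.8% of windows) and the RUNX motif TGTGGT (16.8%) were matched once each in the Rel window and not in the Rela window or the Nfkb2 window shown. The CRE motif TGACGTCA (1.79% of windows) matched none of the 3. Nfkb2 has another 2 annotated start windows, which the accessible region did not reach. They overlap each other and share a GGGACTTTC, and one of them also held GAAAATCCC. A match to letters is a description of the sequence and does not show that a factor was bound.

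Library totals ran from 121599 to 963699 counts, a 7.93-fold range, and replicates 2 and 3 of WT MPP3 showed no difference beyond sampling noise (a chi-square of 1.005 per degree of freedom). They were summed and counted as 1 sample, which left 23 replicates, 11 from WT and 12 from IκB– recipients. Nothing in the labels says that replicates came from separate animals, or whether subsets with the same replicate number shared a host. The tests treated all replicates as independent, also where the 4 subsets were averaged, and compared differences with the spread between these samples. The number of separate hosts is therefore not known, and the p-values do not refer to a spread between hosts. Of 6 genes that define the sorting gates, 4 had a region (Kit, Cd34, Flt3 and Slamf1; Ly6a and Cd48 had none). Of their 11 regions 3 were called between subsets (7.18% of all tested regions were), 1 each at Cd34, Flt3 and Slamf1. One outside genes and nearest to Cd34 had 18.1 CPM (counts scaled to the library size) in HSC and 28.5 in MPP2, and was higher in MPP3 (60.6) and MPP4 (58.6) (adjusted p = 0.00599 for any subset difference, edgeR quasi-likelihood test with Benjamini-Hochberg adjustment). Of the 3 Flt3 regions, 1 inside the gene was highest in MPP4, at 61.8 CPM against 28.6 in HSC (adjusted p = 0.0435 in the same edgeR test), and the others were not called (adjusted p = 0.152 and 0.408). A region inside Slamf1, which encodes CD150, had 22.6 CPM in HSC, although the labels give CD150 as absent from the HSC gate. This region had 19.0 CPM in MPP2, less in MPP4 (12.3) and least in MPP3 (2.98), with an adjusted p of 0.0175 for any subset difference (edgeR). Between recipients 2 of the 11 regions of gate genes were called for the mean effect by edgeR, where 1.73% of all tested regions were, and by DESeq2. The Slamf1 region had 23.9 ± 15.4 CPM from WT (n = 11) and 6.33 ± 4.75 from IκB– recipients (n = 12), with an adjusted p of 0.0160 in edgeR, and of 0.151 without WT MPP3 replicates 2 and 3. A region nearest to Cd34 had 19.8 ± 12.4 and 42.1 ± 20.7 CPM, with an adjusted p of 0.0321, and lost the call in 9 of 23 fits that left out 1 replicate (up to 0.144, without IκB– HSC replicate 3). The part of either in the results at the subunit genes was not tested. Of 27 marker genes of other blood cells and of stroma, 12 had a region, and none of the 4 T cell genes did. Of those 14 regions, 0 were called for the mean recipient effect by edgeR or DESeq2, with 3 at an unadjusted p under 0.05, and 2, both at megakaryocyte genes, between subsets. Over all tested regions 14.3% had such a p for the mean recipient effect, and 7.18% were called between subsets.

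The level of the subunit regions was compared per length, as mean CPM per kb of region over the 23 replicates. The Relb upper-end region was the most accessible, at 258.3 CPM per kb, which placed it at percentile 91.8 of all nuclear regions. The Nfkb2 start region followed at 154.4 (percentile 58.5), and the start regions of Rel at 135.9 (percentile 45.2) and Rela at 135.8 (percentile 45.1) stood close to each other. Nfkb1, which had the most regions, had the 3 least accessible ones. These were the distal region with 94.3 CPM per kb (percentile 12.0), the upper intragenic region with 73.1 (percentile 3.24) and the upper-end region with 64.3 (percentile 1.48). The lower intragenic region of Nfkb1 had 115.0 (percentile 27.2) and the Rela region past the gene end 105.2 (percentile 19.6).

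**Figure D1:**
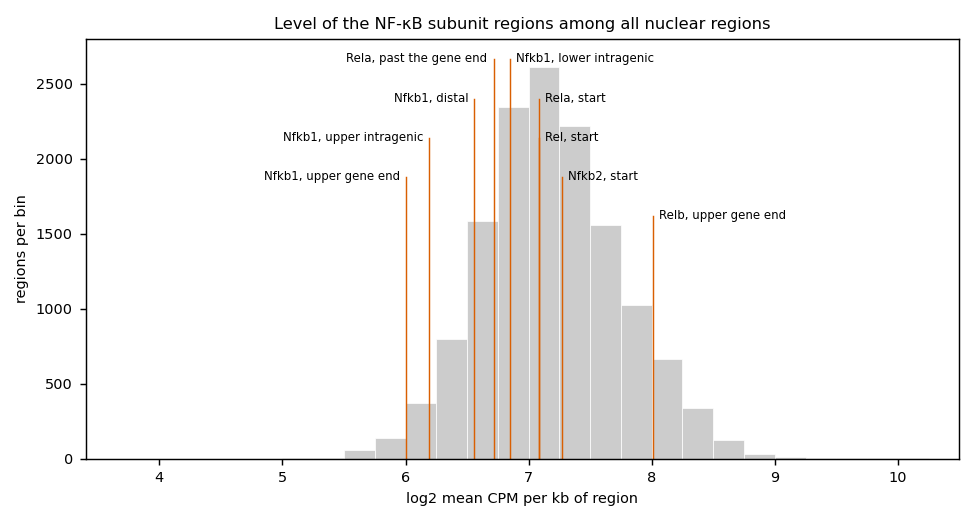
Distribution of the mean accessibility of all nuclear regions over 23 replicates, as log2 CPM per kb of region on the x axis and regions per bin on the y axis, with the 9 NF-κB subunit regions as lines whose height has no meaning. The Relb region lies in the upper tail at percentile 91.8, and the upper-end region of Nfkb1 in the lower tail at percentile 1.48.

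The reads behind these levels were few. The sum over all libraries was 145 counts at the Rela start and 1356 at Relb, and the 4 Nfkb1 regions had means of 7.87 to 13.1 counts per replicate. Of the 9 regions, 8 passed the filter on low counts and were tested among 13325 regions, and the Rela start region did not. The biological coefficient of variation, the spread between replicates beyond counting error as edgeR estimates it, was 0.318 at the lower intragenic, 0.309 at the upper intragenic and 0.304 at the upper-end region of Nfkb1, against a median of 0.199 over all tested regions. It was 0.223 at Relb, 0.216 at Nfkb2, 0.180 at Rel, 0.173 at the distal Nfkb1 region and 0.272 past the end of Rela.

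Relb, the subunit of the non-canonical arm, had the most reads of the 9 regions. In HSC, the CPM of the Relb region was 146.7, 148.5 and 188.7 in the 3 replicates from WT recipients and 110.1, 187.6 and 292.8 in those from IκB– recipients. In MPP2 it was 87.3, 157.6 and 214.4 from WT and 94.6, 117.4 and 213.6 from IκB– recipients. In MPP3 it was 163.1 and 202.1 from WT and 186.6, 203.8 and 265.1 from IκB– recipients. The 2 recipient types overlapped in each of these subsets, and the libraries of IκB– HSC spread over the widest range. In MPP4 it was 132.1, 157.5 and 184.2 from WT and 144.3, 168.7 and 218.8 from IκB– recipients, which also overlapped. By group mean the order ran from IκB– MPP3 (218.5 ± 41.2, SD, n = 3) through IκB– HSC, WT MPP3, IκB– MPP4, WT HSC, WT MPP4 and WT MPP2 to IκB– MPP2 (141.9 ± 63.2, n = 3), and the ranges of all 7 neighbouring pairs in this order overlapped.

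Rel encodes c-Rel, a canonical subunit best known from lymphocytes. Its start region had CPM values of 93.8, 116.2 and 127.3 in WT HSC and 82.6, 116.1 and 128.7 in IκB– HSC. In MPP2 the values were 49.5, 97.9 and 115.2 from WT and 22.0, 101.5 and 122.4 from IκB– recipients. In MPP3 they were 128.6 and 140.4 from WT and 107.8, 146.1 and 159.8 from IκB– recipients. MPP2 thus held the lowest library of both recipient types, and the lowest of all rested on 3 counts. In MPP4 they were 85.9, 111.2 and 114.7 from WT and 95.2, 121.6 and 141.8 from IκB– recipients. The highest group mean was that of IκB– MPP3 (137.9 ± 27.0, n = 3) and the lowest that of IκB– MPP2 (81.9 ± 52.9, n = 3), and again all 7 neighbouring pairs overlapped in range.

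Nfkb2, the precursor of p52, had a start region with 35.2, 51.9 and 55.0 CPM in WT HSC and 0, 66.5 and 68.8 in IκB– HSC. The library at 0 was replicate 2, the shallowest of the series, in which a count of 0 allows up to 3 counts or 26.8 CPM (counting error only). In MPP2 the values were 14.9, 45.5 and 55.0 from WT and 33.4, 44.0 and 45.4 from IκB– recipients. In MPP3 the replicates from WT recipients, at 32.2 and 41.3, lay below those from IκB– recipients, at 44.0, 49.2 and 62.2. In MPP4 they overlapped, with 33.4, 41.7 and 69.5 from WT and 38.1, 52.4 and 60.8 from IκB– recipients.

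Rela encodes p65, the main transactivating subunit of the canonical arm. Its start region had 27.4, 30.6 and 33.0 CPM in WT HSC and 13.8, 26.8 and 31.1 in IκB– HSC, and 6.06, 6.39 and 10.99 in WT MPP2 and 9.73, 14.7 and 16.02 in IκB– MPP2. In MPP3 it had 22.76 and 22.96 from WT and 16.2, 21.1 and 26.8 from IκB– recipients. All replicates of WT HSC and WT MPP3 (n = 2) thus lay above all of WT MPP2, whose values rest on 2 to 3 counts. The share of all regions that separate in this way was not counted. The values of the recipient types overlapped in HSC and MPP3. In MPP4 it had 4.77, 13.9 and 24.3 from WT and 0, 5.44 and 30.8 from IκB– recipients, where the count of 0 allows up to 22.8 CPM. The region had 0 to 28 counts per library and was left out by the filter. In an edgeR fit without the filter, MPP2 was lower than HSC by a log2 fold change of -1.47 ± 0.492 (SE), with an unadjusted p of 0.00464 and an adjusted p of 0.395, and MPP3 was higher than MPP2 by 1.22 ± 0.446, with an adjusted p of 0.0802. Neither was called, and its mean recipient effect was 0.09 ± 0.320 (adjusted p = 0.934). The Rela region past the gene end ranged from 11.5 to 38.0 CPM, and its group means from 17.8 ± 5.08 in WT MPP2 to 29.8 ± 9.88 (n = 2) in WT MPP3.

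Nfkb1 encodes the precursor of p50. Its upper intragenic region had 23.6, 46.9 and 48.9 CPM in WT HSC against 8.93, 13.3 and 34.4 in IκB– HSC, and 16.5, 45.5 and 51.1 in WT MPP2 against 18.7, 29.4 and 32.0 in IκB– MPP2. In MPP3 it had 15.3 and 20.9 from WT and 2.70, 8.61 and 32.8 from IκB– recipients. In MPP4 it had 14.3, 24.3 and 34.8 from WT and 9.25, 13.6 and 22.8 from IκB– recipients. The mean was lower from IκB– recipients in each of the 4 subsets, and the ranges of the recipient types overlapped in each of them. The distal region of Nfkb1 had 33.7 and 39.8 CPM in WT MPP3 and 13.4, 16.2 and 23.4 in IκB– MPP3, which did not overlap. In the other subsets the recipient types overlapped there, with a range over all groups of 7.34 to 48.7. The lower intragenic region ranged from 13.4 to 96.4 CPM, with the highest value in IκB– HSC replicate 1. The upper-end region ranged from 0, in IκB– HSC replicate 2, to 67.3 in WT HSC replicate 1.

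**Figure D2:**
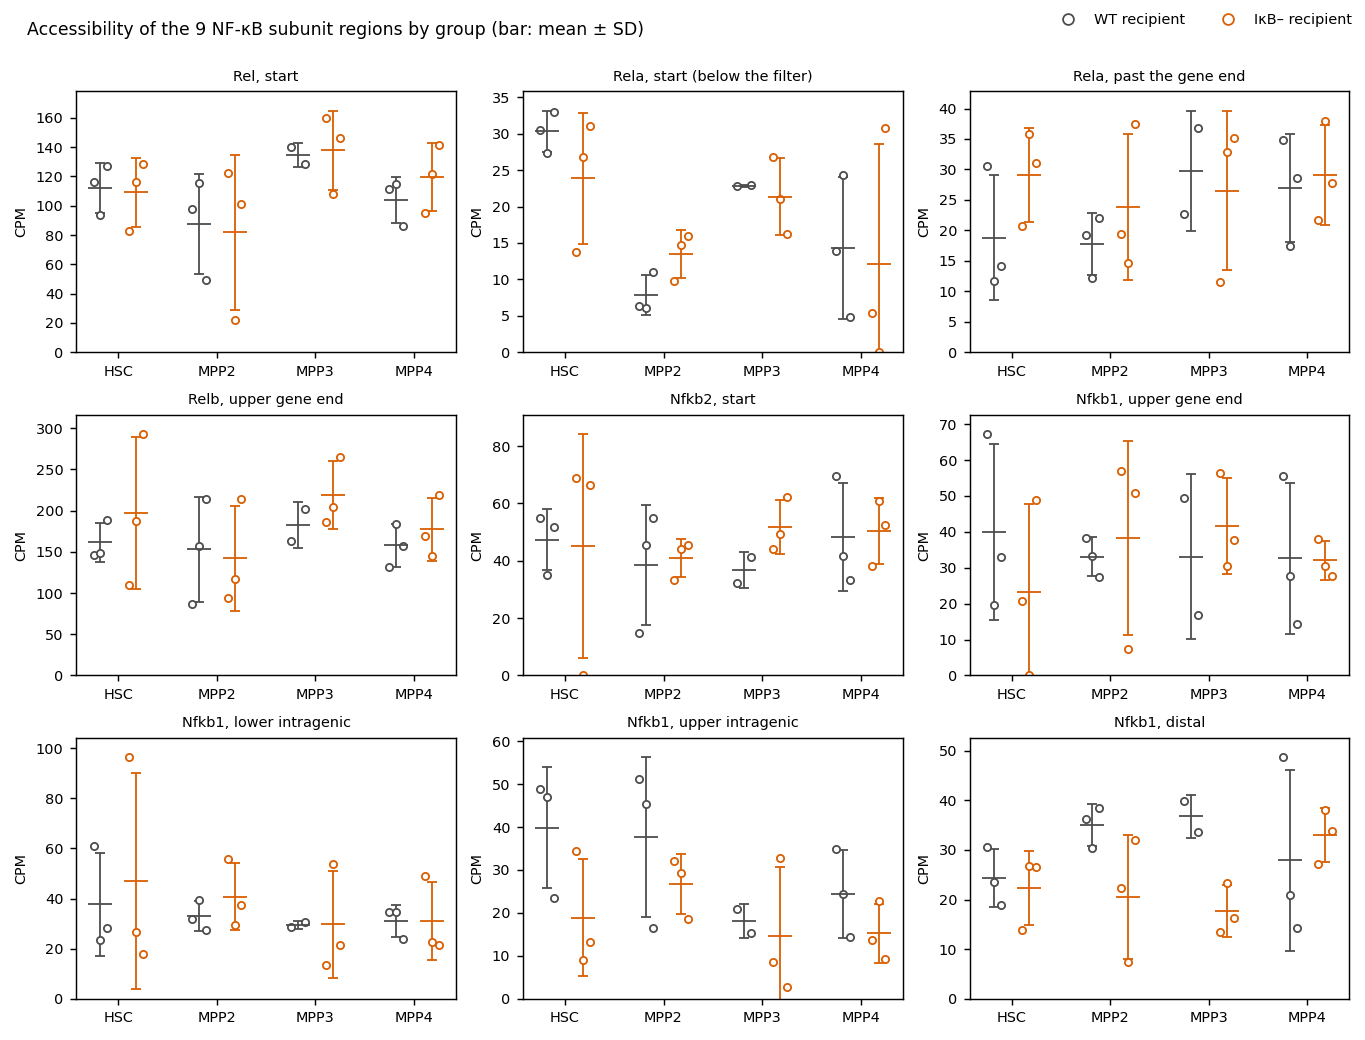
Accessibility in CPM (y axis, from 0, scaled per panel) of the 9 NF-κB subunit regions in the 4 subsets (x axis), with 1 circle per replicate, bars for mean ± SD, grey for WT and orange for IκB– recipients; the lower SD bars are cut at 0. WT MPP3 has n = 2 and every other group n = 3. The recipient types overlap in range except at the distal Nfkb1 region and the Nfkb2 start in MPP3.

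The first comparison asks whether the host changed accessibility at these genes in the WT cells it carried. No subunit region was called, at an adjusted p under 0.05, in any subset. In the edgeR quasi-likelihood test with Benjamini-Hochberg adjustment over all 13325 regions, 0 of 8 were called in HSC (0% of all regions were), 0 of 8 in MPP2 (0%), 0 of 8 in MPP3 (0.21%) and 0 of 8 in MPP4 (0.045%). DESeq2 also called 0 of 8 in each. The adjusted p-values of the 8 regions ran from 0.370 to 0.999 over the 4 subsets, and 1 of the 32 tests had an unadjusted p under 0.05. That was the distal Nfkb1 region in MPP3, with a log2 fold change of -1.10 ± 0.453 from WT to IκB– recipients (unadjusted p = 0.0200, adjusted p = 0.370), a contrast in which 9.52% of all regions had an unadjusted p under 0.05. The Nfkb2 start in MPP3, the other region whose recipient types did not overlap, had a log2 fold change of 0.45 ± 0.423 (adjusted p = 0.834). Regions whose recipient types did not overlap in either direction were 2 of the 8 in MPP3, against 28.2% of all tested regions, where WT MPP3 has only 2 replicates. In the other subsets they were 0 of 8, against 8.5% of all tested regions in HSC, 11.8% in MPP2 and 11.8% in MPP4. The joint test of whether the recipient effect differed between subsets called 0 of 8 (0% of all regions), with adjusted p-values of 0.999 and 0 at an unadjusted p under 0.05 by either tool.

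With the 4 subsets averaged, which uses all replicates, the mean recipient effect was also not called at any of the 8 regions (0 of 8, against 1.73% of all regions, edgeR, and 0 of 8 by DESeq2). The upper intragenic region of Nfkb1 was the 1 region of 8 with an unadjusted p under 0.05, against 14.3% of all regions. Its mean level was 31.1 ± 14.6 CPM from WT (n = 11) and 18.9 ± 11.1 from IκB– recipients (n = 12), a log2 fold change of -0.70 ± 0.317 with a 95% interval of -1.34 to -0.06 (unadjusted p = 0.0330, adjusted p = 0.291). The distal Nfkb1 region had -0.36 ± 0.256 (adjusted p = 0.571). The other 6 regions had estimates above 0. For Relb the estimate was 0.18 ± 0.153, with 162.0 ± 35.3 CPM from WT and 183.6 ± 60.8 from IκB– recipients (adjusted p = 0.654), and its 95% interval reached from a fold of 0.914 to 1.40. For Rel it was 0.07 ± 0.157, with 107.3 ± 25.0 and 112.1 ± 35.9 CPM (adjusted p = 0.888), and the interval reached from 0.844 to 1.31. The intervals of the less read regions were wider, from a fold of 0.831 to 1.60 at the Nfkb2 start and from 0.798 to 1.77 past the end of Rela. Within single subsets the lowest bound of the 32 intervals was a fold of 0.185 and the highest 4.06.

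**Figure D3:**
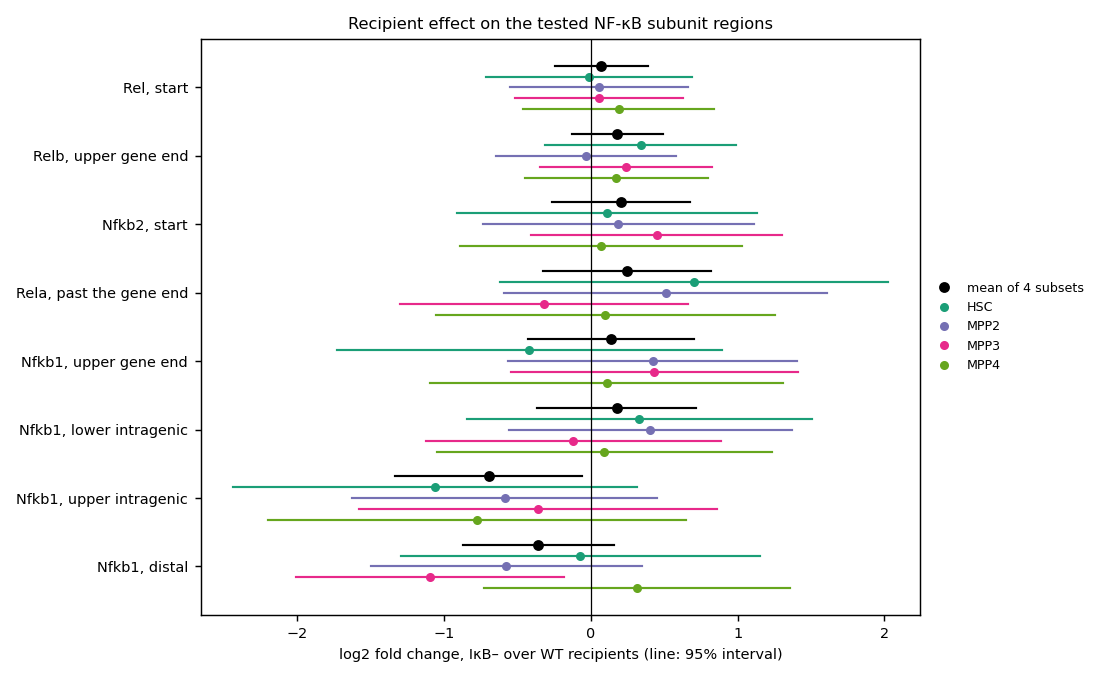
Log2 fold change from WT to IκB– recipients (x axis) of the 8 tested NF-κB subunit regions (y axis), with the mean over the 4 subsets in black and each subset in colour; lines are 95% intervals from edgeR. The intervals include 0 except for the mean effect at the upper intragenic region of Nfkb1 and the effect in MPP3 at the distal region of Nfkb1.

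The second comparison sets the 4 subsets against each other, averaged over both recipient types with equal weight. Again no subunit region was called by edgeR or by DESeq2. The count was 0 of 8 in MPP2 against HSC (0.03% of all regions), 0 of 8 in MPP3 against HSC (2.57%), 0 of 8 in MPP4 against HSC (1.27%), 0 of 8 in MPP4 against MPP3 (0%) and 0 of 8 in MPP4 against MPP2 (3.38%). Of these, only MPP4 against MPP2 had a region at an unadjusted p under 0.05 in edgeR, the upper intragenic region of Nfkb1 (log2 fold change -0.87 ± 0.431, adjusted p = 0.320). In MPP3 against MPP2 the count was 0 of 8 (8.14% of all regions), with 3 at an unadjusted p under 0.05 by edgeR and 2 by DESeq2. Of all regions 21.8% had such a p in edgeR. The joint test of any difference between subsets called 0 of 8 (7.18%), with 1 at an unadjusted p under 0.05, the same Nfkb1 region (adjusted p = 0.257). Of all regions 15.6% had an unadjusted p under 0.05 in MPP4 against MPP2 and 18.8% in the joint test.

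MPP3 against MPP2 was the contrast in which the subunit regions came nearest to the threshold. The Rel start had 84.7 ± 39.9 CPM in MPP2 (n = 6) and 136.5 ± 19.6 in MPP3 (n = 5), a log2 fold change of 0.54 ± 0.207 (adjusted p = 0.0997). The Relb region had 147.5 ± 57.1 and 204.1 ± 37.8 CPM, a log2 fold change of 0.47 ± 0.209 (adjusted p = 0.169). The upper intragenic region of Nfkb1 lay the other way, with 32.2 ± 13.9 and 16.1 ± 11.6 CPM and a log2 fold change of -1.05 ± 0.397 (adjusted p = 0.0968). In both recipient types the mean of Rel and of Relb was highest in MPP3 and lowest in MPP2, while the ranges of MPP2 and MPP3 overlapped at all 3 regions. Single libraries moved these results across the threshold. Without IκB– MPP3 replicate 2 the Nfkb1 region (-1.53 ± 0.400, adjusted p = 0.00931) and Rel (0.64 ± 0.215, adjusted p = 0.0487) were called, and without IκB– MPP2 replicate 3 Relb was called (0.72 ± 0.215, adjusted p = 0.0281). Leaving out other libraries made the estimates smaller in size. The smallest were -0.83 for the Nfkb1 region without IκB– MPP3 replicate 1 and 0.41 for Rel without IκB– MPP2 replicate 2. For Relb the smallest was 0.31, without WT MPP2 replicate 1. The gene-end share, which is the part of a library's nuclear counts in regions less than 1 kb from a gene end, was 67.0% ± 1.03 in MPP2 (n = 6) and 69.0% ± 1.81 in MPP3 (n = 5). With that share as a covariate the log2 fold changes were 0.44 for Rel (adjusted p = 0.165), 0.36 for Relb (0.264) and -0.79 for the Nfkb1 region (0.219).

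**Figure D4:**
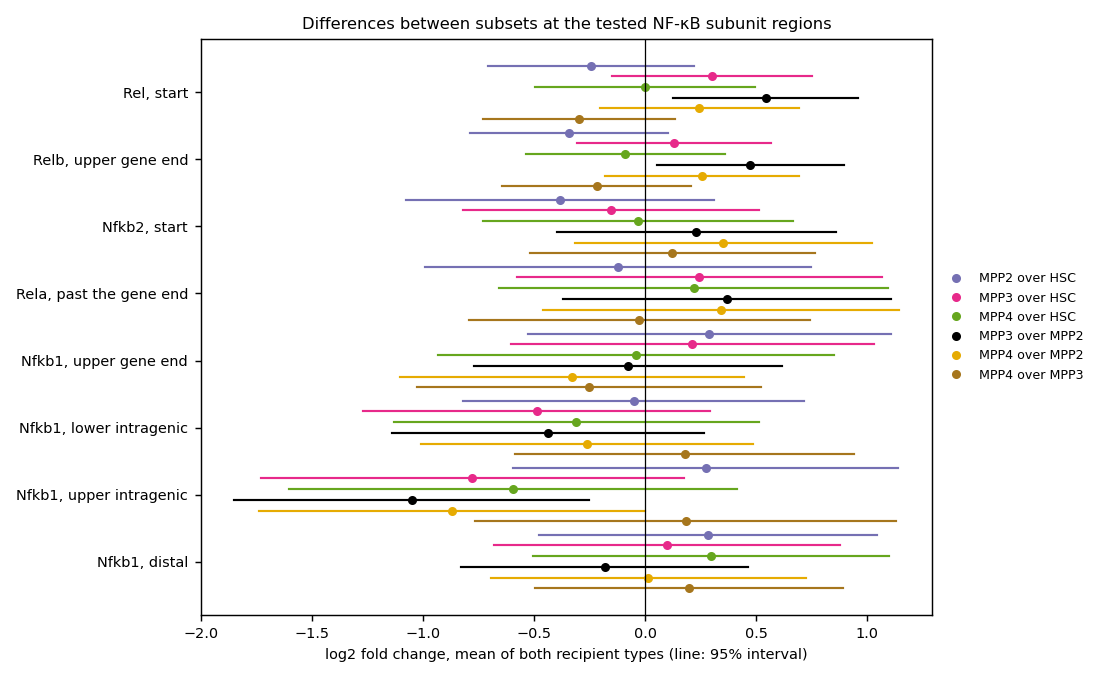
Log2 fold change between subsets (x axis), averaged over both recipient types, for the 8 tested NF-κB subunit regions (y axis), with 1 colour per pair of subsets and 95% intervals from edgeR as lines. In MPP3 over MPP2, drawn in black, the intervals of the Rel start, the Relb upper gene end and the upper intragenic region of Nfkb1 leave out 0, the first 2 on the positive and the last on the negative side.

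Summing all regions of a gene gave 1 value for each subunit gene and did not change this. Of 9417 genes tested in this way, the mean recipient effect called 0 of the 5 subunit genes (0.733% of all genes; 0 at an unadjusted p under 0.05 by edgeR, 0 called by DESeq2), with adjusted p-values of 0.700 to 0.908. The 4 Nfkb1 regions together had 129.5 ± 40.2 CPM from WT and 113.2 ± 35.0 from IκB– recipients, a log2 fold change of -0.13 ± 0.164. The test of any difference between subsets also called 0 of 5 (3.21% of all genes; 0 by DESeq2), with 1 at an unadjusted p under 0.05, Rela (unadjusted p = 0.0480, adjusted p = 0.326). Of all genes 12.4% had an unadjusted p under 0.05 for the mean recipient effect and 15.1% between subsets.

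The genes that act around the subunits were taken as a list of 44, of which 36 had a region and 51 regions were tested. For the mean recipient effect 2 of the 51 regions were called by edgeR (against the 1.73% of all regions given above), both higher from IκB– recipients and both inside Bcl3. Bcl3 encodes an atypical IκB protein that stays in the nucleus with p50 or p52 dimers. The 2 called regions lay 187235 and 188210 bp above the Relb region on the same chromosome. The first (chr7:19816386-19816595) had a minimum, median and maximum of 9.09, 24.7 and 42.8 CPM from WT and of 29.2, 43.4 and 75.4 from IκB– recipients. Its means were 25.2 ± 10.1 (n = 11) and 46.1 ± 15.0 (n = 12), a log2 fold change of 0.89 ± 0.225 (adjusted p = 0.0317). The second (chr7:19817361-19817769) had 24.2, 45.2 and 71.6 CPM from WT and 46.0, 80.1 and 98.3 from IκB– recipients. Its log2 fold change was 0.63 ± 0.174 (adjusted p = 0.0454). The recipient types overlapped in range at both, and the estimate was above 0 in each of the 4 subsets at both. The calls were close to the threshold: leaving out 1 replicate at a time ended the call of the first in 8 of 23 fits and of the second in 18 of 23, with adjusted p-values of up to 0.101 (without IκB– MPP4 replicate 3) and 0.113 (without WT MPP4 replicate 2). DESeq2 called neither (adjusted p = 0.0507 and 0.0865), nor any other region of the list. The other tested regions of Bcl3 lay outside genes and were not called by edgeR either. The one at chr7:19824191-19824507 had a log2 fold change of 0.05 ± 0.255 (adjusted p = 0.950, edgeR). The one at chr7:19830787-19831165 had 0.37 ± 0.206 (adjusted p = 0.424, edgeR).

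The other groups of that list had no called region for the mean recipient effect. Among the IκB proteins 2 of 10 tested regions were called, with a median log2 fold change of 0.11. Among the deubiquitinases and their partners, which remove the ubiquitin chains that carry the signal, 0 of 7 were called (median -0.10), with 1 at an unadjusted p under 0.05. Among the kinases, which include IκB kinase and NIK, 0 of 7 were called (median 0.03, 1 at an unadjusted p under 0.05). Among the adaptors and ubiquitin ligases 0 of 19 were called (median 0.03, 2 unadjusted), and among the receptors 0 of 8 (median 0.00, 2 unadjusted). The median over all 13325 regions was 0.00. Over the whole list 8 of 51 regions had an unadjusted p under 0.05, 7 of them higher and 1 lower from IκB– recipients, and 14.3% of all tested regions had one. Between subsets 0 of the 51 were called by edgeR or DESeq2, against 7.18% of all regions in edgeR, and 3 had an unadjusted p under 0.05, against 18.8%. The smallest p was at a region inside Tnfrsf1b, which encodes TNF receptor 2 (adjusted p = 0.193).

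For each subunit gene, the region of another gene with the most similar pattern was found as the highest Pearson r of log2 CPM over the 23 replicates, among 5579 or 5580 regions with a mean of at least 20 counts. For Relb this was a region at an end of LOC114841036 (r = 0.872, Spearman rho = 0.818; r = 0.834 without the 2 replicates farthest from the median of Relb). For the Rela region past the gene end it was one at Psmd3, a proteasome subunit (r = 0.659, rho = 0.679; 0.667 without 2 replicates). For Rel it was one at Cdc27, a subunit of the anaphase-promoting complex (r = 0.808, rho = 0.523), and r fell to 0.393 without 2 replicates. For the Nfkb2 start and for the Nfkb1 upper end it was the same region at Cnppd1, with r = 0.891 and 0.807. These rested on IκB– HSC replicate 2 and 1 other library, without which r was 0.0822 and 0.0593. All regions of a replicate share its library and depth, and each r is the highest of many, so these values are descriptions.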

How the data were processed

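The authors deposited raw counts of reads per region in 1 table, and the values are whole numbers. The submitters' processing notes name mm10, Bowtie2, SAMtools, Picard, MACS2 2.1.0 and deepTools without roles or settings. How the common regions were made, duplicates removed, reads shifted for Tn5 and counts taken is not given in the sources used here, nor is whether positions count from 0 or 1. Regions were placed by RefSeq genes (GRCm38.p6).

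Counts were fitted with edgeR 4.0.16 in R 4.3.3 (TMM, filterByExpr with a minimum count of 10, robust quasi-likelihood, 1 mean for each of the 8 groups), with Benjamini-Hochberg adjustment over all regions of a contrast and a threshold of 0.05. CPM values use TMM-scaled library sizes. Log2 CPM for correlations used a pseudocount of 1. The fit was tested on simulated data. Alternatives were DESeq2 1.42.0, other scalings, no filter, all 24 libraries kept apart, a replicate block, leaving out each replicate, 10 kb in place of 50 kb, and, chosen after seeing the data, the gene-end share as a covariate.

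The text names every region of the 5 genes, the called regions of the pathway list or else that with the smallest p, and the region most like each gene's most counted one. The genes, lists and tests were chosen with earlier results of these data known.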

Additional observations from a re-analysis of the deposited data

How the results depend on the processing

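No subunit region was called for a recipient effect under any alternative or with any replicate left out. Between subsets, calls appeared with a replicate block and with some replicates left out, and in none of the other alternatives. With the replicate number as a block, or the block nested in recipient type, 3 subunit regions were called in MPP3 against MPP2 under each: Relb (adjusted p = 0.00372 and 0.00193), Rel (0.0219 and 0.00924) and the upper intragenic region of Nfkb1 (0.0171 and 0.0102). For any subset difference the blocks called 1 region and 2 regions, and 1 gene by gene sums, Relb, under each. Libraries with the same number correlated with a mean r of 0.184 over 84 pairs, of which 57 exceeded 0.1. Within the same recipient type the mean r was 0.227 over 36 pairs, of which 30 exceeded 0.1. For libraries with different numbers it was -0.0915 over 168 pairs, of which 15 exceeded 0.1. The labels do not say what a number shares, so the numbers were not taken as pairs. These blocked fits kept all 24 libraries apart. Against the same 24 libraries without a block, the replicate-number block raised the regions called over the whole table from 287 to 481 for the mean recipient effect, from 80 to 357 for recipients in MPP3, from 0 to 6 for the recipient effect by subset, from 4 to 31 in MPP2 against HSC, from 403 to 817 in MPP3 against HSC, from 184 to 406 in MPP4 against HSC, from 1294 to 2192 in MPP3 against MPP2, from 493 to 862 in MPP4 against MPP2, from 0 to 2 in MPP4 against MPP3 and from 1078 to 1938 for any subset difference. By gene sums it raised 101 to 240 and 400 to 1095.

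With 1 replicate left out, 0 to 2 subunit regions were called in MPP3 against MPP2 and 0 to 1 for any subset difference. Estimates that changed sign ranged from -0.094 to 0.311 (lower intragenic Nfkb1, lowest without IκB– HSC replicate 1), -0.166 to 0.359 (upper-end Nfkb1) and -0.018 to 0.137 (Rel) for the mean recipient effect, and from -0.521 to 0.243 (upper-end Nfkb1) and -0.017 to 0.378 (Nfkb2) in MPP3 against MPP2. None of these was called. Whole-table counts moved too. The 231 regions called for the mean recipient effect became 147 by DESeq2, 385 when edgeR included the gene-end share (chosen after seeing the data), 53 without WT MPP3 replicates 2 and 3, and 442 without IκB– HSC replicate 1. For recipients in MPP3, 28 became 0 without WT MPP3 replicate 1 and 144 without IκB– HSC replicate 3, and for those in MPP4, 6 became 0 without WT MPP4 replicate 2. In MPP2 against HSC, 4 became 1 or 21 (without IκB– HSC replicate 3 or 1), in MPP3 against HSC, 343 became 175 or 796 (without IκB– HSC replicate 1 or 3). Without IκB– HSC replicate 3 the highest counts also arose in MPP4 against HSC (169 to 287), MPP3 against MPP2 (1085 to 1583), MPP4 against MPP2 (450 to 734) and any subset difference (957 to 1478). The lowest were 59 (without IκB– MPP4 replicate 1), 597 (without WT MPP3 replicates 2 and 3), 189 (without IκB– MPP4 replicate 3) and 623 (without WT MPP2 replicate 1). By gene sums, 69 ranged from 23 to 162 and 302 from 167 to 644. With the gene-end share included, 26 regions were called in MPP2 against HSC, 327 in MPP4 against HSC and 952 in MPP4 against MPP2, and by gene sums 167 for the mean recipient effect and 489 for any subset difference. For recipients in MPP3 80 regions were called with all 24 libraries kept apart, and in MPP4 1 in place of 6 by DESeq2 or with its size factors. Within 10 kb, 8 regions belonged to the subunit genes. The cause of these shifts was not tested. The Nfkb1 and Rela regions had the fewest reads, with fewer than 14 counts per replicate on average, and the Nfkb2 start had 14.6.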
